A study of Mus musculus with 8 samples.

Results

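The genes described here are transcripts that were nearly silent in early meiotic prophase, became abundant at the pachytene and diplotene stages in wild-type (WT) spermatocytes, and were low at those stages in Cnot4-null spermatocytes. They were selected on the measured values themselves. A gene belonged to the set if its mean over the libraries of a group was under 1 FPKM (fragments mapped to a transcript, scaled to its length and to the size of the library) in both leptotene-zygotene (LZ) groups, at least 10 FPKM in WT pachytene-diplotene (PD) cells, and at most 1/3 of the WT PD mean in Cnot4-null PD cells. Symbols that start with Mir, Snora or Snord were left out, and 9 such symbols met the other conditions. Of the 23235 listed symbols, 259 were activated at PD by the first conditions, and 105 of these 259 also met the condition on Cnot4-null PD cells. Of the other activated transcripts, 122 lay between 1/3 and 2/3 of WT PD in Cnot4-null PD and are called intermediate, and 32 lay at 2/3 or above and are called retained. Because the rule used all 4 groups, the levels of the 105 members in these groups are a description and carry no test.

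The study compared spermatocytes of 6-week-old male C57BL/6 mice that were WT or carried Cnot4 fl/fl with Stra8-Cre. Stra8-Cre drives recombination in male germ cells before meiosis, so the deletion, which removes exon 2 of Cnot4 and shifts the reading frame, is limited to germ cells and their descendants. LZ and PD cells were sorted by flow cytometry, and each of the 4 groups (WT LZ, Cnot4-null LZ, WT PD and Cnot4-null PD) has 2 libraries. The methods call the duplicates biological replicates, but the sources do not say which animals a library came from, so p-values measure only the spread between these libraries, and the smallest two-sided p of an exact permutation test between groups of 2 is 0.333.

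CNOT4 is a RING-type ubiquitin ligase that associates with CCR4-NOT, the complex that shortens poly(A) tails and so starts the decay of many mRNAs. Many genes whose products serve the later spermatid are first switched on in pachytene cells, together with long non-coding RNAs found mainly in the testis, while the X and Y chromosomes are silent in these cells.

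Cnot4 itself stood at 36 and 34.9 FPKM in the WT libraries and 43.2 and 34.6 FPKM in the Cnot4-null libraries at LZ. The corresponding PD levels were 76.6 and 73.1 FPKM for WT and 65.9 and 53.5 FPKM for Cnot4-null. At PD the log2 difference was -0.33 (SE 0.20, adjusted p = 0.192 by limma). A single value per gene does not show the deleted exon, so this level does not check the genotype.

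The Cnot4-null PD libraries stand apart. All or nearly all listed markers of Leydig cells, peritubular cells and matrix, spermatids and spermatogonia were called higher in them than in WT PD, and 6 of 13 markers of pachytene cells were called lower. Among all genes tested 41.6% were called higher and 11.5% lower, and the list counts are read against these shares. The gene named as most abundant in a marker list is the one with the highest mean in Cnot4-null PD. The somatic marker lists are given first. All 12 Leydig cell markers rose, and their summed level was 168 and 15.3 FPKM in WT PD and 12716 and 27340.4 FPKM in Cnot4-null PD, with 73.7 and 63.8 FPKM in WT LZ and 21.2 and 30.5 FPKM in Cnot4-null LZ. The most abundant, Insl3, a hormone of Leydig cells, was at 104 and 4.9 FPKM in WT PD and 9669 and 21608 FPKM in Cnot4-null PD. All 11 peritubular and matrix markers rose (summed level 22.6 and 5.29 FPKM in WT PD and 419 and 1028 FPKM in Cnot4-null PD, with 18.9 and 16.4 FPKM in WT LZ and 5.52 and 6.04 FPKM in Cnot4-null LZ, most abundant Dcn). Both lists were thus higher in each Cnot4-null PD library than in any of the other 6. The Leydig list holds Aldh1a1 and Gstm2, and the peritubular and matrix list holds Sparc. The study lists primers for these genes in its poly(A) tail assay of spermatocytes, and so treated them as transcripts of those cells. Of 13 Sertoli cell markers tested 7 rose (summed level 33.7 and 90.1 FPKM in WT PD and 164 and 275 FPKM in Cnot4-null PD, with 276 and 258 FPKM in WT LZ and 49.2 and 45.2 FPKM in Cnot4-null LZ, most abundant Clu). The share of Sertoli markers that rose is near that of all genes. Fshr, a defining receptor gene, was at 0 FPKM in every library except Cnot4-null LZ replicate 1 (0.154 FPKM), so its level does not set Cnot4-null PD apart. Of 10 macrophage markers tested 5 rose (summed level 4.44 and 4.11 FPKM in WT PD and 51.1 and 172 FPKM in Cnot4-null PD, with 49.6 and 2.76 FPKM in WT LZ and 21.9 and 6.36 FPKM in Cnot4-null LZ, most abundant Lyz2), which is also near the share of all genes. The Sertoli sums overlapped with those of WT LZ, and the macrophage sum of WT LZ replicate 1 came close to that of Cnot4-null PD replicate 1. Red blood cell markers were near 0 in every library, and 6 of 7, the globin genes among them, had 0 FPKM in both libraries of Cnot4-null PD.

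Markers of other germ cell stages moved as well. All 10 late spermatid markers rose, with a summed level of 562 and 414 FPKM in WT PD and 19066 and 9408 FPKM in Cnot4-null PD, and the most abundant was the protamine gene Prm1 at 176 and 74.8 FPKM in WT PD and 7592 and 2949 FPKM in Cnot4-null PD. Their sum was 2042 and 1769.8 FPKM in WT LZ and 4451 and 840.4 FPKM in Cnot4-null LZ, so it was also above WT PD in all 4 LZ libraries. Of 12 round spermatid markers 10 rose (summed level 273 and 253 FPKM in WT PD and 1200.2 and 686 FPKM in Cnot4-null PD, with 48.8 and 147 FPKM in WT LZ and 77.5 and 30.9 FPKM in Cnot4-null LZ, most abundant Txndc8). Protamines package DNA in the sperm head, and their genes mark cells after meiosis. Of 12 spermatogonial markers 11 rose (summed level 70.7 and 84.2 FPKM in WT PD and 358 and 477 FPKM in Cnot4-null PD, most abundant Uchl1), and their LZ sums were higher still or alike, at 686 and 641 FPKM in WT LZ and 459 and 631 FPKM in Cnot4-null LZ. Of 15 leptotene and zygotene markers 8 rose and 2 fell (summed level 659 and 684 FPKM in WT PD and 876 and 553 FPKM in Cnot4-null PD, with 1948 and 1935 FPKM in WT LZ and 3241 and 2028 FPKM in Cnot4-null LZ, most abundant Tex101), shares near those of all genes in both directions. The shares of all genes given above are those as deposited. After quantile normalization 3020 of the 15899 genes tested were called higher and 3963 lower, and after rescaling 3704 and 6378. After quantile normalization and after rescaling, all Leydig, late spermatid, and peritubular and matrix markers were again called higher, but the counts of other lists moved. Of the Sertoli markers 2 and 4 were then called higher (and 2 lower after rescaling), of the macrophage markers 1 and 5, of the round spermatid markers 8 and 6 (and 1 lower after rescaling), of the spermatogonial markers 8 and 10 (and 1 lower after rescaling), and of the leptotene and zygotene markers 5 and 6 (with 2 and 5 lower). Without WT PD replicate 1 or without WT PD replicate 2, 4 Sertoli markers were called higher, and the macrophage count was 1 and 0. The macrophage count was also 0 without the filter on low values, 1 at adjusted p under 0.01, 1 without Cnot4-null PD replicate 2 and 3 without either Cnot4-null LZ library. Without WT PD replicate 2, 7 spermatogonial and 5 leptotene and zygotene markers were called higher, and the 2 calls of lower leptotene and zygotene markers became 0 without either WT PD library or Cnot4-null PD replicate 2 and 1 without either WT LZ library. Without either WT LZ library 1 round spermatid marker was called lower, and without WT LZ replicate 2 also 1 spermatogonial marker. Without Cnot4-null PD replicate 1, 1 Sertoli marker was called lower. The median log2 difference of the leptotene and zygotene list was 1.20 as deposited and turned to -0.01 after quantile normalization, and that of the Sertoli list went from 1.09 to 0.03.

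Of the 13 pachytene markers 6 fell and 0 rose. After quantile normalization and after rescaling 7 and 12 fell, and 1 was called higher without Cnot4-null PD replicate 2. Their summed level was 13401 and 12532 FPKM in WT PD and 6061 and 2209.5 FPKM in Cnot4-null PD, with 278 and 393 FPKM in WT LZ and 294 and 133 FPKM in Cnot4-null LZ. The most abundant was Ldhc, the testis lactate dehydrogenase, at 10594 and 9725 FPKM in WT PD and 4584 and 1474 FPKM in Cnot4-null PD. Over the 12 of these markers with a WT PD mean above 1 FPKM, the median value was 52.5% of the WT PD mean in Cnot4-null PD replicate 1 and 26.5% in replicate 2. None of the 105 members is in any of these marker lists. The study checked the sorted cells by immunofluorescence for SYCP3 and pH2AX, which is not analysed here. In bulk RNA, fewer cells of a type and less RNA per cell cannot be told apart, and the part that these markers have in the levels of the members was not tested.

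**Figure D1:**
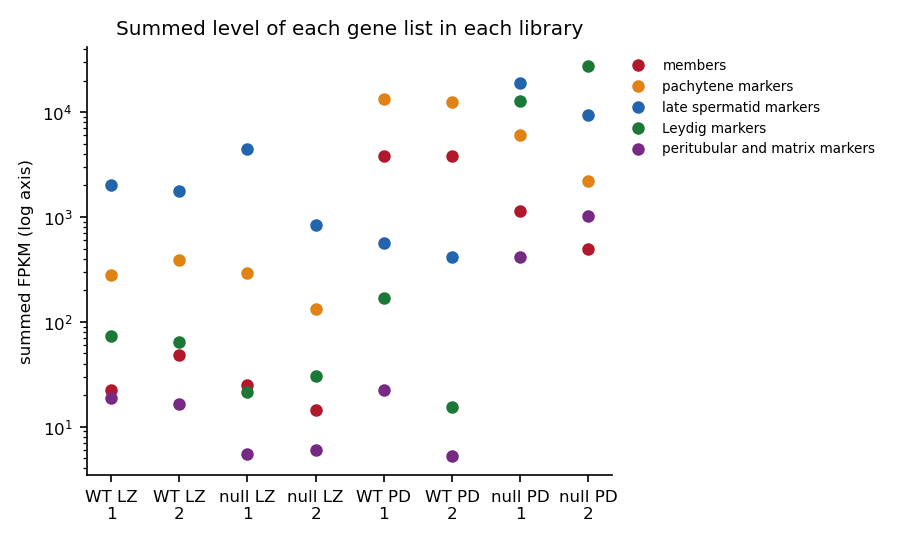
Summed FPKM (log axis) of the 105 members and of 4 marker lists in each of the 8 libraries, 1 point per list and library. The members sum to 3804 and 3857 FPKM in WT PD and to 1147 and 492 FPKM in Cnot4-null PD, where the Leydig cell markers reach 12716 and 27340 FPKM.

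The members together reached 3804 and 3857 FPKM in WT PD and 1147 and 492 FPKM in Cnot4-null PD, from 22.5 and 48.7 FPKM in WT LZ and 24.7 and 14.5 FPKM in Cnot4-null LZ. Their WT PD means had a median of 26.8 FPKM and a maximum of 257 FPKM, and their Cnot4-null PD means had a median of 5.57 FPKM and ran from 0.291 to 46.4 FPKM. The word lost therefore describes a reduction for most of them. Only 5 members had a Cnot4-null PD mean under 1 FPKM and 58 had at least 5 FPKM. In 99 of 105 both Cnot4-null PD values were above both Cnot4-null LZ values, as in 121 of 122 intermediate and 32 of 32 retained transcripts. The same order held in 6396 of the 15747 genes above 1 FPKM in a library, the small RNA symbols left out. The limit of the rule on LZ favours this order, so nothing is read from it. As a share of WT PD, the Cnot4-null PD mean ran from 1.80% to 33.3%, with quartiles at 17.2%, 22.2% and 28.1%.

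On the log2(FPKM + 1) scale, which understates the change of low genes, the median difference of the members between Cnot4-null and WT at PD was -2.08 (from -4.13 to -1.47), beside 0.66 over all 15899 genes tested. From LZ to PD the median change of the members was 4.45 in WT and 2.28 in Cnot4-null, beside -0.32 and 0.19 over all genes tested. With a pseudocount of 0.1 these medians were 6.51 and 4.43, beside -0.55 and 0.23. All 105 members passed the filter on low values, which the WT PD condition of the rule guarantees. The limma fit across all genes called 104 of the 105 lower in Cnot4-null PD (11.5% of all genes tested), 105 higher at PD than at LZ in WT (21.6%) and 88 higher at PD than at LZ in Cnot4-null (27.8%). Both Cnot4-null PD values lay under both WT PD values for all 105 members and for 23.1% of all genes tested, and 0 members were called higher in Cnot4-null PD, beside 41.6% of all genes tested. The rule used these contrasts, so nothing is read from the counts. The same holds for the fits without 1 WT PD library, for which the share of all genes called is not given. Without WT PD replicate 1 or without WT PD replicate 2 the number called lower was 59 or 60.

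**Figure D2:**
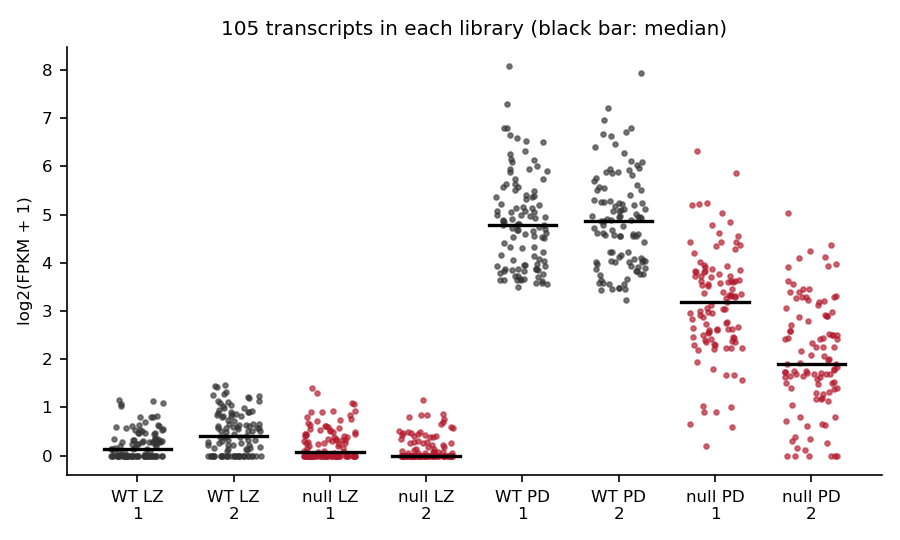
log2(FPKM + 1) of each of the 105 members in the 8 libraries, 1 point per transcript, with a black bar at the median. The medians correspond to 26.6 and 28.3 FPKM in WT PD and to 8.16 and 2.75 FPKM in Cnot4-null PD, and the points of Cnot4-null PD replicate 2 reach down to 0.

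The Cnot4-null PD libraries differed from each other. The median member was at 32.2% of its WT PD mean in replicate 1 and at 13.8% in replicate 2. On the log2(FPKM + 1) scale the median difference of all 105 members, replicate 2 minus replicate 1, was -0.97. Replicate 2 was the lower for 95 members (90.5%). The same order held for 109 of the 122 intermediate transcripts (89.3%), for 25 of the 32 retained transcripts (78.1%) and for 80.6% of the 5447 symbols with a WT PD mean of at least 10 FPKM, the small RNA symbols included. Over the 15747 genes above 1 FPKM in a library, here without the small RNA symbols, it held for 53.0%, with a median difference of -0.06. The WT PD values of a member were within 1.5-fold of each other for 104 of 105, and the Cnot4-null PD values for 22. These numbers were 122 and 38 of the 122 intermediate transcripts, 30 and 11 of the 32 retained transcripts, and 11710 and 6773 of the 15747 genes above 1 FPKM in a library (genes at 0 in both libraries counted as within), so the Cnot4-null PD libraries were also less alike than the WT PD libraries outside the members. In Cnot4-null PD replicate 2, 6 members were listed at 0, and in replicate 1, 0 were. Across the 105 members, the Spearman correlation of the percent of WT in the 2 Cnot4-null PD libraries was 0.252, and across the 259 activated transcripts it was 0.667. These points are genes of the same 2 libraries and share the WT mean, so they are not independent.

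**Figure D3:**
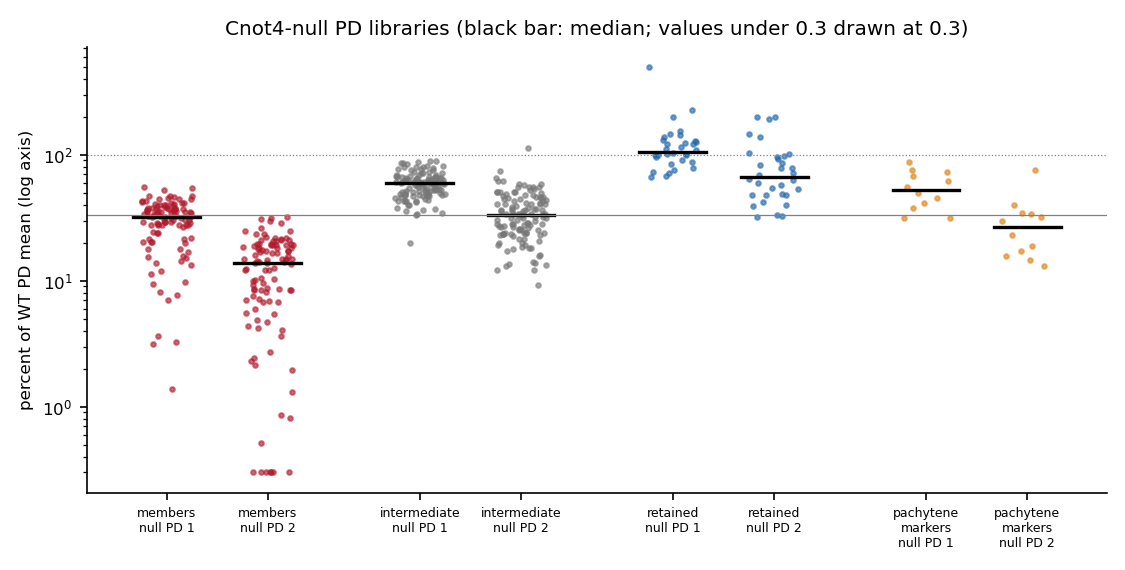
Value in each Cnot4-null PD library as a percent of the WT PD mean (log axis), for the 105 members, the 122 intermediate and 32 retained transcripts and 12 pachytene markers, with a black bar at the median, a solid line at 1/3 and a dotted line at 100%. The lowest values are drawn at the foot of the plot. The member medians are 32.2% and 13.8%, and those of the pachytene markers are 52.5% and 26.5%.

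The members form the lower end of a continuous distribution. Of the 259 activated transcripts, 13 were at up to 10% of WT PD in Cnot4-null PD, 29 between 10% and 20%, 63 between 20% and 33.3%, 77 between 33.3% and 50%, 45 between 50% and 66.7%, 22 between 66.7% and 100%, and 10 above. No gap separates the members from the intermediate transcripts. Just inside the limit of 1/3 were the non-coding transcript 4931440J10Rik (33.3%), Bpi, which encodes a bactericidal protein (33%), and Shisa3 (32.8%). Just outside it were Adam18, a surface protein gene of male germ cells (33.7%), Gdf9, best known as an oocyte growth factor (33.7%), and H2-DMb1 (33.8%). At the limit on WT PD, Defb41 (10 FPKM), Vnn1 (10.2) and 4930578M01Rik (10.4) were inside and Gm872 (9.86), Gm9833 (9.83) and Cyb5r2 (9.6) outside. At the limit on LZ, Ankar (WT LZ mean 0.983 FPKM), 4930513N10Rik (0.937) and 4930515G01Rik (Cnot4-null LZ mean 0.907 FPKM) were inside, and 1700029I01Rik (Cnot4-null LZ mean 1.003 FPKM), Gm11992 (WT LZ mean 1.01 FPKM) and 4933434I20Rik (1.03) were outside.

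**Figure D4:**
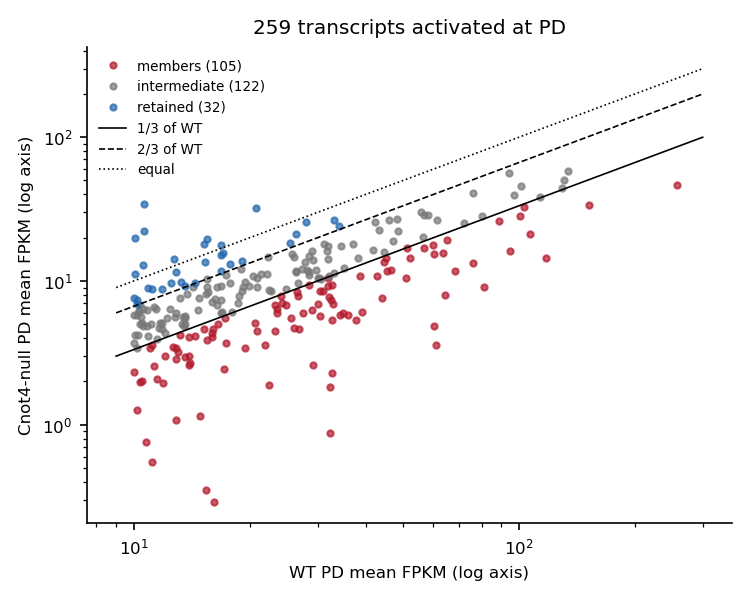
Cnot4-null PD mean against WT PD mean (FPKM, both axes logarithmic) of the 259 transcripts activated at PD, 1 point per transcript, with lines at 1/3 of WT, 2/3 of WT and equality. The 105 members lie on or under the line at 1/3, from 1.80% to 33.3% of WT, with no gap above them.

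The number of members depended on the scaling and on single libraries. It was 169 without Cnot4-null PD replicate 1 and 59 without replicate 2. Quantile normalization gave 211 members, of which 95 were among the 105, and rescaling the libraries to the same median gave 362, which held all 105. When each PD library was divided by its median level of the pachytene markers, an alternative chosen after seeing the data, 18 members remained and the median log2 difference at PD of the 105 became -0.90. Of the 15899 genes tested, limma called 6619 higher and 1830 lower in Cnot4-null PD than in WT PD as deposited. The counts were 3020 and 3963 after quantile normalization, and 3704 and 6378 after rescaling. In this order, the higher genes made up 78.3%, 43.2% and 36.7% of the genes called in either direction. The median log2 difference over all genes tested was 0.663, -0.047 and -0.207.

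A low level in Cnot4-null PD was also found in genes that were high at PD but had more RNA at LZ. In a comparison chosen after seeing the data, 5144 genes outside the 259, with symbols that start with Mir, Snora or Snord left out as in the rule, had a WT PD mean of at least 10 FPKM, and 313 of them (6.08%) were at 1/3 of WT PD or less in Cnot4-null PD. The share was 22.4% of the 1154 genes whose WT PD mean was at least 5 times the WT LZ mean, 27.6% of 738 genes at 10 times and 34.1% of 443 genes at 20 times, beside 40.5% (105 of 259) of the activated transcripts. Of the 12 pachytene markers with a WT PD mean above 1 FPKM, 4 were at 1/3 or less. They were Pou5f2 (22.2%), Spag6 (23.5%), Tbpl1 (27.7%) and Ldhc (29.8%), and each had an LZ mean above the limit of the rule. The share of WT retained was lower in transcripts with a higher WT PD mean (Spearman correlation -0.296 across the 259, which share the same libraries, and the share itself contains the WT PD mean).

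Long non-coding RNAs made up 42 of the 105 members (40.0%) by RefSeq gene class, in which all 105 had an entry. They were 19 of 121 intermediate transcripts (15.7%), 6 of 32 retained transcripts (18.8%), 5.13% of genes with a WT PD mean of at least 10 FPKM and 6.73% of genes above 1 FPKM in a library, both without the small RNA symbols. Counted the other way, 42 of the 67 activated long non-coding RNAs (62.7%) and 59 of the 183 activated protein-coding genes (32.2%) were members. The median Cnot4-null PD level of the non-coding members was 21.5% of WT, and that of the coding members 25.3%. The remaining 4 members are transcribed pseudogenes. Under the stricter rule that every library pass each threshold, 38 members remained and 42.1% of them were long non-coding. These shares are descriptions, with no test of the difference.

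**Figure D5:**
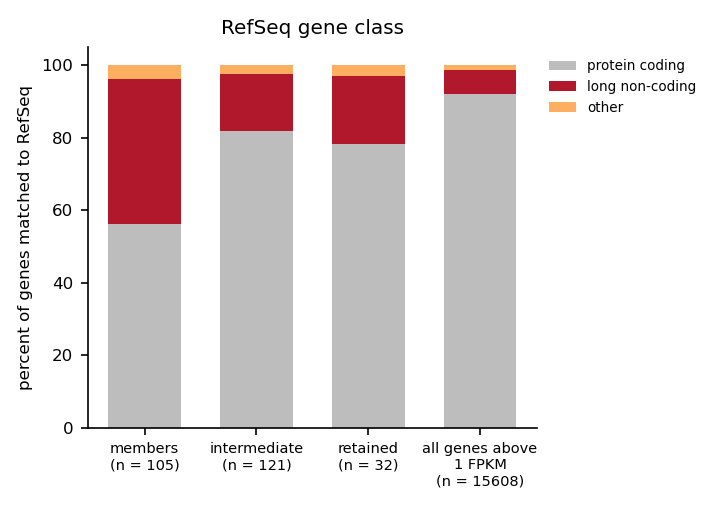
RefSeq gene class of the members, the intermediate and retained transcripts and all genes above 1 FPKM in a library, as a percent of the genes matched to RefSeq. The small RNA symbols are left out. Long non-coding RNAs make up 40.0% of members, 15.7% of intermediate and 18.8% of retained transcripts and 6.73% of all these genes.

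The most abundant non-coding member, 4930553E22Rik, was at 157 and 148 FPKM in WT PD and 36.1 and 31.6 FPKM in Cnot4-null PD, with 0.464 and 0.878 FPKM in WT LZ and 0 and 0 FPKM in Cnot4-null LZ. For 4930556C24Rik the values were 109.7 and 104 FPKM in WT PD and 31.6 and 10.8 FPKM in Cnot4-null PD. 4930474M22Rik was at 95.5 and 111 FPKM in WT PD and 56.9 and 8.78 FPKM in Cnot4-null PD, so its Cnot4-null libraries differed widely while its WT libraries were alike. 1700069L16Rik was at 75.8 and 76.5 FPKM in WT PD and 15.2 and 11.3 FPKM in Cnot4-null PD. In all 4 of these transcripts both Cnot4-null PD values were below both WT PD values and above every LZ value.

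Of the 6 members listed at 0 in Cnot4-null PD replicate 2, all but Defb41 are non-coding. 4930404A05Rik was at 31 and 33.5 FPKM in WT PD and 3.66 and 0 FPKM in Cnot4-null PD, and 4930556N09Rik at 29.8 and 28.5 FPKM in WT PD and 5.17 and 0 FPKM in Cnot4-null PD. 4930511A02Rik, the member whose Cnot4-null PD values were most unlike, was at 38.9 and 36.6 FPKM in WT PD and 10.6 and 0.109 FPKM in Cnot4-null PD. 4930548K13Rik was low in both Cnot4-null libraries, at 22.2 and 22.7 FPKM in WT PD and 2.17 and 1.59 FPKM in Cnot4-null PD, and was listed at 0 in all 4 LZ libraries.

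Among the protein-coding members, the most abundant was Ppp1r27, a regulatory subunit of protein phosphatase 1. It was at 269 and 245 FPKM in WT PD and 78.5 and 14.2 FPKM in Cnot4-null PD, with 0.272 and 0.773 FPKM in WT LZ and 0.874 and 0.515 FPKM in Cnot4-null LZ. Replicate 1 of Cnot4-null PD was well above replicate 2, and both were below the WT PD values. Ppp1r1c, another regulator of that phosphatase, was at 29 and 36.4 FPKM in WT PD and 5.09 and 5.58 FPKM in Cnot4-null PD. It and the members in the next 3 paragraphs that are given by protein role were picked after their values were seen, except Asb4, Slc9a10, Ankar, Gipc2, Spdyb, Epyc, Olfr1188 and Vnn1.

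Several members encode transport and signalling proteins. Slc9a10 (Slc9c1 in RefSeq), the sodium-proton exchanger of the sperm tail, was at 90.7 and 87.3 FPKM in WT PD and 35.6 and 16.3 FPKM in Cnot4-null PD, and it kept one of the 5 highest Cnot4-null PD levels. Aqp9, a channel for water and glycerol, was at 59.1 and 61.3 FPKM in WT PD and 20.6 and 9.99 FPKM in Cnot4-null PD. The ABC transporter genes Abca14 and Abca15 were at 25.7% and 25.3% of WT PD, and Abcc3 at 28.5%. The phosphate transporter gene Slc34a2 was at 27.2% and the zinc transporter gene Slc39a8 at 29%. Of the receptors, Agtr1a, which binds angiotensin, was at 10.8 and 10.2 FPKM in WT PD and 3.95 and 0.0909 FPKM in Cnot4-null PD. Rxfp2, the receptor for INSL3, was at 12.2 and 10.8 FPKM in WT PD and 2.48 and 1.66 FPKM in Cnot4-null PD. Pde10a, a phosphodiesterase of cyclic nucleotides, was at 28.8% of WT PD.

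Of the members tied to the cell cycle, protein turnover or the cytoskeleton, Asb4 is the substrate-binding part of a cullin ubiquitin ligase. It was at 63.2 and 56.9 FPKM in WT PD and 9.47 and 0.307 FPKM in Cnot4-null PD, with replicate 2 close to its LZ values. Spdyb, of the Speedy family that activates cyclin-dependent kinases, was at 29.5 and 30.5 FPKM in WT PD and 13.3 and 0.585 FPKM in Cnot4-null PD. Katnal2, a katanin-like protein of microtubules, was at 26.6 and 23.2 FPKM in WT PD and 8.87 and 4.63 FPKM in Cnot4-null PD. Gipc2, a PDZ-domain protein, was at 70.2 and 58.2 FPKM in WT PD and 13 and 3.03 FPKM in Cnot4-null PD, and Ankar, a protein with ankyrin and armadillo repeats, was at 99.8 and 101 FPKM in WT PD and 36.7 and 19.7 FPKM in Cnot4-null PD. In each of these genes replicate 2 was the lower Cnot4-null PD library.

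Some members are better known from other tissues. Epyc, a proteoglycan of cartilage, was at 57.9 and 64 FPKM in WT PD and 5.72 and 1.49 FPKM in Cnot4-null PD. The olfactory receptor gene Olfr1188 was at 27.1 and 37.3 FPKM in WT PD and 1.01 and 0.742 FPKM in Cnot4-null PD, the lowest share of WT (2.73%) among members with a WT PD mean of at least 20 FPKM. Unlike most members, its Cnot4-null PD libraries were alike. Vnn1, a pantetheinase, was at 10.4 and 9.97 FPKM in WT PD and 0.14 and 2.39 FPKM in Cnot4-null PD, with replicate 1 the lower of the Cnot4-null PD libraries.

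Some of these values are uncertain because genes overlap or have similar copies. The methods kept only uniquely mapped reads, so reads that match several copies would be left out and the levels of such copies understated. Overlapping genes could still share reads. Whether counting used strand is not given in the sources used here. In GENCODE vM1 models on mm9, found for 80 of the 105 members, 10 members had an exon over an exon of another listed gene, 9 of them on the opposite strand. Gm10754 shared all of its 50-base stretches with Epyc, which lies on the other strand, so these members may be 1 signal. Gm10754 was at 32.7 and 32.6 FPKM in WT PD and 4.34 and 0.265 FPKM in Cnot4-null PD. The transcripts 4933402N22Rik, Gm6455 and Gm6460, similar copies close together on chromosome 5, shared 83.5%, 83.1% and 68.9% of their stretches with other genes. 4933402N22Rik was at 78.9 and 83.7 FPKM in WT PD and 11.3 and 6.9 FPKM in Cnot4-null PD, Gm6455 at 111 and 124 FPKM in WT PD and 14.1 and 14.8 FPKM in Cnot4-null PD and Gm6460 at 91.1 and 98.3 FPKM in WT PD and 14.3 and 18.1 FPKM in Cnot4-null PD. Of the 80 members, 9 shared at least 10% of their stretches with another gene and 54 shared none. The members without a model were not checked for overlap or copies. Most of them are non-coding, and they include 4930553E22Rik, 4930556C24Rik and 4930474M22Rik. 4930513N10Rik overlaps Cnot1, which encodes the scaffold of CCR4-NOT, and 4931440J10Rik overlaps Ints6, each on the opposite strand. They shared only 2.34% and 0% of their stretches with other genes. Besides the similar copies and the Epyc pair, the members at 10% or more were 4930404I05Rik (42.5%), 4930515G01Rik (21.5%), Spdyb (16.7%) and Ccdc144b (11.0%). Since under 80% of the members had a model, a comparison of exon number and transcript length is void and is not given.

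The members lay on all 19 autosomes and none on X or Y. None of the 258 activated transcripts with a RefSeq entry lay there either. Only 0.149% of genes with a WT PD mean of at least 10 FPKM lay on X, beside 4.14% of genes above 1 FPKM in a library. Both sets are without the small RNA symbols. Of the 19 autosomes, only those with the most members are given below, a choice that favours high shares, and no test was run. Chromosome 3 held 14 members (13.3%, beside 4.82% of genes above 1 FPKM), chromosome 5 held 13 (12.4%, beside 6.30%), chromosome 1 held 10 (9.52%, beside 5.72%) and chromosome 10 held 9 (8.57%, beside 4.61%). Of the intermediate transcripts, 7.44% lay on chromosome 3, 6.61% on chromosome 5, 9.09% on chromosome 1 and 9.09% on chromosome 10, so the members' shares on chromosomes 1 and 10 were close to those of the intermediate transcripts. The 3 similar copies on chromosome 5 are among those 13.

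Promoters are shown because the members share, by the rule, a rise at PD in WT. RefSeq promoter windows (GRCm38.p6, 300 bases, from 250 before to 50 after the start of the first listed entry of a symbol) were found for 85 members. Motifs were searched on both strands. CAACTG, bound by MYB factors, was in 17 of 85 member windows (20%), 21.5% of 93 intermediate, 28.6% of 21 retained and 13.6% of all 27025 windows. The cAMP response element TGACGTCA was in 2 member windows (2.35%, beside 1.88% of all), and TGACG, its shorter form, which also lies inside the full one, in 22.4% (21.0% of all). GTTGCC, from the X-box of RFX factors, was in 11.8% (12.7%), ACAATG, of SOX factors, in 10.6% (12.8%), CACGCG, of TCFL5, in 9.41% (9.36%), and TATAAA, the TATA box, in 12.9% (14.2%). Under the rule that every library pass each threshold, 33 member windows were left. In these TATAAA was in 24.2%, CACGCG in 3.03% and TGACGTCA in 0%. Of the 85 windows, 29 held none of these motifs, 40 held 1 and 16 held at least 2. A match is only a match of letters.

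The windows below belong to members described above, Ppp1r27, Ankar and Slc9a10 for their high levels, Epyc and Olfr1188 for their low share of WT in Cnot4-null PD, and to Tspyl4, picked after its sequence was seen as 1 of the 2 with the full cAMP response element. Tspyl4 was at 11 and 11.1 FPKM in WT PD and 4.53 and 2.3 FPKM in Cnot4-null PD. Capitals mark the motifs on either strand, and in Ankar a match to TGACG and a match to CAACTG overlap. In GRCm38.p6 the window of Ppp1r27 is chr11:120551083-120551382 on the minus strand, that of Ankar chr1:72700530-72700829 on the minus strand, that of Slc9a10 chr16:45535016-45535315 on the plus strand, that of Epyc chr10:97643818-97644117 on the plus strand, that of Olfr1188 chr2:88559201-88559500 on the plus strand and that of Tspyl4 chr10:34297171-34297470 on the plus strand. Each is written 5′ to 3′ along the strand of its gene and spans the promoter and the first bases of the transcript.
Ppp1r27: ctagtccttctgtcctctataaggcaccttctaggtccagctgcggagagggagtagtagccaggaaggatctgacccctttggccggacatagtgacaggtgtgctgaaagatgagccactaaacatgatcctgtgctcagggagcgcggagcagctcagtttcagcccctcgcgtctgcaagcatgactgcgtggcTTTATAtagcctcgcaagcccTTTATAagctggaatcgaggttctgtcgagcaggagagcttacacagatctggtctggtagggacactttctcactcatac
Ankar: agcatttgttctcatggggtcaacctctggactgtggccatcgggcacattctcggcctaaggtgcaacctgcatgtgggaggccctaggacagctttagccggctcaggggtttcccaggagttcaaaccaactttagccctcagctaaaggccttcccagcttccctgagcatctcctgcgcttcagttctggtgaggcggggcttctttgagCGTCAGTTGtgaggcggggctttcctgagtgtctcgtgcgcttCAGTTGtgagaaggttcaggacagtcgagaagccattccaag
Slc9a10: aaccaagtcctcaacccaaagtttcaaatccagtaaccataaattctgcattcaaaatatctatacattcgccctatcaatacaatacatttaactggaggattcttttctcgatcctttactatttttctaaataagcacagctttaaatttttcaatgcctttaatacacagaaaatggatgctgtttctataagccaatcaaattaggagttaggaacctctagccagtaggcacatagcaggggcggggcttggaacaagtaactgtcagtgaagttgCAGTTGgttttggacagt
Epyc: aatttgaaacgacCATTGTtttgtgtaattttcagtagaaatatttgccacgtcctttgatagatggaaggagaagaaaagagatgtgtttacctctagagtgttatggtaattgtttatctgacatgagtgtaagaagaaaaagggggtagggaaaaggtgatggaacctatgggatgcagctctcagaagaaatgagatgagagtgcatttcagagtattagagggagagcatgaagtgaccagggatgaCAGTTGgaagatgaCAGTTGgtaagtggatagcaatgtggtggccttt
Olfr1188: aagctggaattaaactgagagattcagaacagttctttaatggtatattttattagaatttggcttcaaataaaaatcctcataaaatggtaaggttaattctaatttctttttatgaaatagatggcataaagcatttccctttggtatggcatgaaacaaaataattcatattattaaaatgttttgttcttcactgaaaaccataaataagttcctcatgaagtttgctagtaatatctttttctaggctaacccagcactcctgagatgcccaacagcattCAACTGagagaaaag
Tspyl4: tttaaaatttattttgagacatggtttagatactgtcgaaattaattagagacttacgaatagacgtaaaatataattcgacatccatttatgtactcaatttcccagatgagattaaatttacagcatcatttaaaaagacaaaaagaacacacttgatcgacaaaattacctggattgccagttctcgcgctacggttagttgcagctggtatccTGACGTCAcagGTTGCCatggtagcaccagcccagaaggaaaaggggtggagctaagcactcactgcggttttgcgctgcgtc

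Other genes of the spermatocyte and spermatid programme, from lists of roles, moved in both directions, and the balance depended on the scaling. Of 152 such genes that were tested and are not members, 31 fell and 72 rose in Cnot4-null PD, beside 11.5% and 41.6% of all genes tested, and 27 of the list genes are also in a marker list. Without WT PD replicate 1, WT PD replicate 2 or Cnot4-null PD replicate 2 the number that fell was 8, 6 or 9, and without WT PD replicate 2 the number that rose was 43. After rescaling 65 fell and 45 rose, beside 6378 and 3704 of the 15899 genes tested. After quantile normalization 38 fell and 51 rose, beside 3963 and 3020 of all genes tested. The median log2 difference turned from 0.13 to -1.29 for the acrosome genes under rescaling, and it was -0.12 and -1.55 for the sperm tail and motility genes. Of the acrosome genes 8 of 28 fell and 13 rose, of the sperm tail and motility genes 6 of 36 fell and 14 rose, and of the genes of the spermatid nucleus 1 of 21 fell and 16 rose. The 1 that fell, Cypt9, belongs to a family of similar genes, and its value is uncertain. Of the testis kinases and phosphatases 4 of 21 fell (Ppp3r2, Ppp3cc, Stk33 and Ppp1cc) and 10 rose, and of the testis ubiquitin factors 3 of 23 fell (Psma8, Trim69 and Usp2) and 13 rose. Those that fell in these last lists are named after their values were seen. These counts rested on single libraries. Without WT PD replicate 1, without WT PD replicate 2, without Cnot4-null PD replicate 1 and without Cnot4-null PD replicate 2, in this order, the acrosome genes that fell numbered 2, 0, 10 and 1, and those that rose 8, 7, 7 and 11. For the sperm tail and motility genes 3, 3, 14 and 2 fell and 10, 9, 9 and 14 rose. Of the kinases and phosphatases 0, 0, 6 and 2 fell and 6, 5, 10 and 12 rose, and of the ubiquitin factors 1, 1, 4 and 2 fell and 7, 7, 9 and 11 rose. Cypt9 was not called in any of these 4 fits, and 2 kinase and phosphatase genes fell without either Cnot4-null LZ library. After quantile normalization and after rescaling, 9 and 7 acrosome genes rose while 9 and 14 fell, and 11 and 9 sperm tail and motility genes rose while 7 and 19 fell. The kinase and phosphatase genes gave 4 and 6 that rose beside 4 and 7 that fell, the ubiquitin factors 7 and 7 beside 5 and 6, and the genes of the spermatid nucleus 16 and 14 beside 2 and 2.

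Of 23 regulators of the pachytene and spermatid stages, none of them a member, 9 fell and 6 rose at PD. After quantile normalization 11 fell and 4 rose, and after rescaling 17 fell and 2 rose. Of all 15899 genes tested, 3963 fell and 3020 rose after quantile normalization, and 6378 fell and 3704 rose after rescaling. Without WT PD replicate 1 or without WT PD replicate 2, 2 fell and 3 rose, without Cnot4-null PD replicate 1, 11 fell and 3 rose, and without Cnot4-null PD replicate 2, 2 fell and 5 rose. Of the 9, Tbpl1 and Tcfl5 were called lower in each of these fits. Tbpl1, a relative of the TATA-binding protein, was at 334 and 334 FPKM in WT PD and 127 and 58 FPKM in Cnot4-null PD, a log2 difference of -1.95 (SE 0.35, adjusted p = 0.00367 by limma). Tcfl5, a basic helix-loop-helix factor, was at 270.4 and 294 FPKM in WT PD and 123 and 64.4 FPKM in Cnot4-null PD, a log2 difference of -1.65 (SE 0.32, adjusted p = 0.00537 by limma). In both genes every Cnot4-null PD value was under every WT PD value. Crem, a factor that binds the cAMP response element, fell by 0.99 on the log2 scale, Rfx2 by 1.02, Rfx4 by 1.32, the bromodomain gene Brdt by 1.21, the helicase gene Ddx25 by 1.58, Csda by 1.04 and Tdrd6 by 1.25. The 6 that rose were Taf7l, Fhl5, Spz1, Rfx1, Brwd1 and Rfx3, and the sign of Rfx3 turned under quantile normalization and that of Brwd1 under rescaling. For Taf7l, a germ cell form of a general transcription factor subunit, the log2 difference was 4.20 (SE 0.21, adjusted p = 9.49e-05 by limma), from 4.88 and 4.34 FPKM in WT PD and 95.2 and 109.8 FPKM in Cnot4-null PD. Taf7l was much higher at LZ, at 383 and 430.4 FPKM in WT LZ and 518 and 392 FPKM in Cnot4-null LZ, so its Cnot4-null PD level lay between those of WT PD and LZ. Mybl1, the MYB factor of pachytene cells, was not called, at 9.39 and 10.3 FPKM in WT PD and 8.6 and 3.38 FPKM in Cnot4-null PD (adjusted p = 0.16 by limma), nor was Sox30, at 27.4 and 30.9 FPKM in WT PD and 31.6 and 24 FPKM in Cnot4-null PD (adjusted p = 0.823). The marker shifts of the Cnot4-null PD libraries given above apply to these genes as well.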

How the data were processed

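RNA of sorted spermatocytes was sequenced by the authors in 8 libraries. The methods describe Smart-Seq2 libraries while the labels name another kit, and this was not settled here. The deposited values are FPKM, made by the authors with TopHat2 2.1.1 and Cufflinks 2.2.1 on mm9. FPKM hold no counts. Ratios of low values between libraries were searched for steps of single reads, but outside the reference library only 13.1% to 16.9% of the low genes shared the most frequent ratio, so no relative depth is given, and read totals listed by the study were not used here.

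The members and gene lists were chosen with earlier results of these data known. Levels were compared on log2(FPKM + 1) with limma 3.58.1 in R 4.3.3 (lmFit and eBayes with trend, all 8 libraries, Benjamini-Hochberg adjustment, calls at adjusted p under 0.05) over 15899 genes above 1 FPKM in at least 1 library. The script was tested on simulated data. Gene class and promoters came from RefSeq, and exon overlap from GENCODE vM1. Tables were handled with pandas 2.3.3 and numpy 2.4.6 under Python 3.11.15, correlations with scipy 1.17.1, and plots drawn with matplotlib 3.10.9.

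Genes were named by a rule, with exceptions. It took the 10 members with the highest WT PD mean. It took the 10 with the lowest share of WT among those with a WT PD mean of at least 20. The 5 with the highest Cnot4-null PD mean and the 5 with the most unlike Cnot4-null PD values followed. The 3 genes on each side of each threshold, members in a role list, the regulators, the markers and Cnot4 were added. Other members and role-list genes named above were picked after their values, overlaps or sequence were seen. Alternatives changed the thresholds, pseudocount, filter, scaling, libraries and model.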

Additional observations from a re-analysis of the deposited data

Results flagged for a closer look

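For 6 of the 23 regulators, none of them a member, the effect of genotype at PD differed from that at LZ by limma's interaction term at adjusted p under 0.05. The same term called 30% of all genes tested, so the count is near the background. The difference of the log2 effects was -1.97 for Tbpl1 (SE 0.49, adjusted p = 0.0242) and -1.81 for Tcfl5 (SE 0.46, adjusted p = 0.0253), both lower in Cnot4-null at PD. It was 4.05 for Taf7l (SE 0.29, adjusted p = 0.000825), 2.28 for Rfx1 (SE 0.39, adjusted p = 0.00686), 3.91 for Fhl5 (SE 1.16, adjusted p = 0.0419) and 2.64 for Spz1 (SE 0.83, adjusted p = 0.0498).

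Other genes with a large difference of this kind were picked by their PD values, so their differences are a description with no test. Psma8 and Cypt9, 2 of the genes named because they were called lower at PD, had differences of -1.71 (SE 0.44) and -5.69 (SE 1.59). The other 6 so named lay between -1.48 (Ppp3cc) and -0.83 (Ppp1cc). Among the markers named for the highest Cnot4-null PD mean of their list, the difference was 9.14 for Insl3 (SE 1.68), 6.88 for Dcn (SE 1.68), 6.48 for Clu (SE 0.59), 5.46 for Prm1 (SE 1.36) and 5.04 for Uchl1 (SE 0.40). For the others so named that were tested it was 4.92 for Lyz2, 3.21 for Txndc8, -0.55 for Ldhc and -0.82 for Tex101.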

How the results depend on the processing

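The number of members was 182 with a limit of 1/2 and 42 with 1/5, 68 with a WT PD minimum of 20, 67 with an LZ maximum of 0.5, 38 when every library had to pass, 211 after quantile normalization, 362 after rescaling and 18 when scaled on pachytene markers (chosen after seeing the data). Leaving out 1 library gave 59 (without Cnot4-null PD replicate 2) to 169 (without Cnot4-null PD replicate 1). Of the members, 68 were called lower at PD with a pseudocount of 0.1, and 59 (without WT PD replicate 1) to 105 on leaving out 1 library, with 60 without WT PD replicate 2. The shares of all genes called in these fits are not given, so nothing is read from these counts. The median log2 difference of the members at PD was -3.29 after rescaling and -0.90 when scaled on pachytene markers, and -2.58 to -1.48 on leaving out 1 library. Their median change from LZ to PD in Cnot4-null was 4.43 with a pseudocount of 0.1, and 1.70 to 2.97 on leaving out 1 library, and 64 to 100 members were then called higher.

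Of the role-list genes, 65 fell after rescaling, 14 without the filter, 14 with only the 4 PD libraries and 8 at adjusted p under 0.01, and 6 (without WT PD replicate 2) to 45 (without Cnot4-null PD replicate 1) on leaving out 1 library, with 8 without WT PD replicate 1 and 9 without Cnot4-null PD replicate 2. After rescaling 45 rose, and 43 (without WT PD replicate 2) to 69 on leaving out 1 library. Where 1 library was left, it was assumed to vary like the other groups. With every library past the thresholds, TGACGTCA was in 0% of member promoters, CACGCG in 3.03% and TATAAA in 24.2%. The log2 difference of Rfx3 was -0.55 after quantile normalization and that of Brwd1 -0.13 after rescaling. For single genes, 864 values kept direction and side of the threshold or moved by less than 1 SD, 123 were no longer called, 35 became called and 34 moved further. The cause of these differences was not tested, except that a stricter threshold adds no calls by construction.

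The other alternatives run kept the number of members, the counts of members called and the counts of all role-list genes called within 1.5 times their values. This did not hold for single lists. Of 30 counts of genes called higher or lower in single marker and role lists, 18 moved by more than 1.5 times after rescaling, 7 after quantile normalization, 11 at adjusted p under 0.01, 9 without the filter, 6 with only the 4 PD libraries, 1 without the trend, 1 with the replicate number as a block (1 pachytene marker was then called higher) and 0 with a pseudocount of 0.1. On leaving out 1 library, 2 (without WT LZ replicate 1 or either Cnot4-null LZ library) to 16 (without WT PD replicate 2) moved so far.

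With the replicate number as a block, 103 members were called lower at PD, and 32 role-list genes fell and 67 rose. Of all 15899 genes tested, 1836 were called lower and 6462 higher in that fit. The correlation of same-numbered deviations ran from -0.0651 to 0.194 over the pairs of groups, and with 2 libraries per group the numbers do not establish a pairing. The deposited FPKM give no read counts, and counting error was not computed here.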
